A study of Mus musculus with 8 samples.

Results

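The lysosome's digestive enzymes, its cathepsins and the proton pump that acidifies it were followed across 4 groups of cultured mouse peritoneal macrophages. The genes were taken by name: every gene whose symbol begins with Atp6v0 or Atp6v1, which are the subunits of the vacuolar proton pump, and 34 listed genes of lysosomal enzymes, membrane proteins and regulators. Of the 55 genes so named, 54 had a probe, among 16593 genes in all. They were 21 pump subunits, 8 of the membrane sector V0 and 13 of the cytosolic sector V1, and 33 of the 34 listed genes. Cd68 has no probe in the annotation used and was not analysed here. The 54 genes had 78 probes, and 13 genes had more than 1.

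The cells came from C57BL/6 mice and adhered overnight in culture with serum and supernatant of L929 cells, which contains the macrophage growth factor M-CSF, after which floating cells were removed. The 4 groups were macrophages lacking the Fcγ chain (FcgKO) given IFNγ at 10 ng/ml for 6 h, wild-type (WT) macrophages given the same, unstimulated FcgKO macrophages, and unstimulated WT macrophages. Each group has 2 samples on Illumina MouseRef-8 bead arrays. The labels name no allele and no batch, and call the samples duplicates without saying that they came from separate mice, so a p-value here reflects no more than the spread of these samples, and that spread may be technical.

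The Fcγ chain is the signalling subunit shared by activating Fc receptors, and IFNγ is the cytokine that primes macrophages for killing and antigen presentation. A lysosome works as an acid compartment: the pump moves protons in, the low pH activates cathepsins and glycosidases, and these break down what the cell has engulfed, including the antigens later shown on MHC class II. Many of these genes are known targets of the transcription factor TFEB, which binds a palindromic DNA element called CLEAR (coordinated lysosomal expression and regulation).

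The probe for Fcer1g, which encodes the Fcγ chain, read 107 and 98.5 in FcgKO cells with IFNγ, against 16987 and 18350.2 in WT cells with IFNγ. It read 95.7 and 95.6 in unstimulated FcgKO cells, against 17567 and 18350.2 in unstimulated WT cells. These values go with the labels. They are deposited intensities, on a linear scale that is not background-subtracted, and each array's median probe lay near 103 with the brightest at 22479. Correlations between the 2 arrays of a group were 0.996 to 0.997 over 16593 genes with 1 probe each, on the log2 scale after background correction. Of 10 symbols listed for macrophage markers, which include Emr1, an older name of Adgre1, 7 had a probe. Csf1r was among those without one. The 7 had a summed intensity of 35662 to 45516 over the arrays. A probe's brightness depends on its sequence, so no probe's level is set against another's. Of the 54 genes, 4 lay under the array median on all arrays (Atp6v0a4, Atp6v0d2, Atp6v1e2 and Atp6v1g3, all pump subunits used by few tissues), so a change in them could not be measured.

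The promoters of these genes show how often the CLEAR element stands at a lysosomal gene. RefSeq promoter windows (GRCm38.p6, 250 bases before to 50 after the gene's start) were at hand for 43 of the 54 genes, 5 of them with several windows. The 8-letter CLEAR core TCACGTGA, searched on both strands, was in a window of 7 of the 43 genes (16.3%), against 1.12% of all 27025 genes with a window. The 7 stretches that hold it are shown with the core in capitals, each on the gene's own strand.
Atp6v0d1, chr8:105566045-105566084, minus strand: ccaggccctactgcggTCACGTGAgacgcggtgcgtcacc
Atp6v0e, chr17:26676382-26676421, plus strand: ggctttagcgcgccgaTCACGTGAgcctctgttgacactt
Atp6v1a, chr16:44139368-44139407, minus strand: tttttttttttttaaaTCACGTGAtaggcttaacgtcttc
Ctsa, chr2:164833744-164833800, plus strand: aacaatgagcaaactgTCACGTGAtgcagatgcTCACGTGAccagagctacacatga
Ctsd, chr7:142387903-142387942, minus strand: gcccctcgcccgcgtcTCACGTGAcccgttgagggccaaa
Ifi30, chr8:70766837-70766876, minus strand: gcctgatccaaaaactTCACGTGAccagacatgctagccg
Mcoln1, chr8:3500457-3500496, plus strand: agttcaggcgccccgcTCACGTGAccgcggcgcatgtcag

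In Ctsa, which encodes a carboxypeptidase that also protects β-galactosidase and neuraminidase, the core stood at 2 places. In Atp6v0d1, Atp6v0e and Ctsa a core lay at or beside the gene's start, and in the other genes it lay further upstream. The shorter E-box CACGTG, which lies inside the CLEAR core, was in the windows of 15 of the 43 genes (34.9%), against 8.09% of all genes. The IRF element GAAANNGAA was in 3 of the 43 (6.98%, Atp6v1d, Ctss and Lamp1), against 9.76%. A match is a description of the letters in the window, not a site shown to be bound.

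IFNγ against unstimulated cells asks what activation does to the lysosomal genes in each genotype. In FcgKO macrophages 2 of the 54 genes rose and 10 fell, and in WT macrophages 2 rose and 9 fell (limma, adjusted p below 0.05 over all 16593 genes). The cathepsin C gene Ctsc and the pump subunit gene Atp6v0a2 were the risers in both genotypes. Atp6v0a1, Atp6v1c1, Ctsl and Gusb fell in both. Of all genes, 5.07% rose and 7.15% fell in FcgKO cells, and 5.54% rose and 7.77% fell in WT cells. The median log2 fold change of the 54 genes was -0.14 in FcgKO cells and -0.03 in WT cells, against -0.02 in FcgKO and -0.01 in WT for all genes. The median of the 54 was -0.06 in FcgKO with cyclic loess, and -0.06 without replicate 2 of unstimulated FcgKO. In WT it was 0.004 with cyclic loess and ran from -0.08 to -0.02 over the fits without 1 array, so its sign is not settled. The 6 genes called with the same direction in both genotypes were 6 of the 12 called in FcgKO cells and 6 of the 11 called in WT cells. Of the 7 macrophage markers 1 rose and 1 fell with IFNγ in FcgKO cells, and 2 rose and 3 fell in WT cells. Of the 9 mast cell markers, Hdc, a histamine-forming enzyme, rose in both genotypes. The part of these markers in the lysosomal results was not tested. In the RNA of a whole culture, fewer cells of a type and less RNA per cell cannot be told apart.

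**Figure D1:**
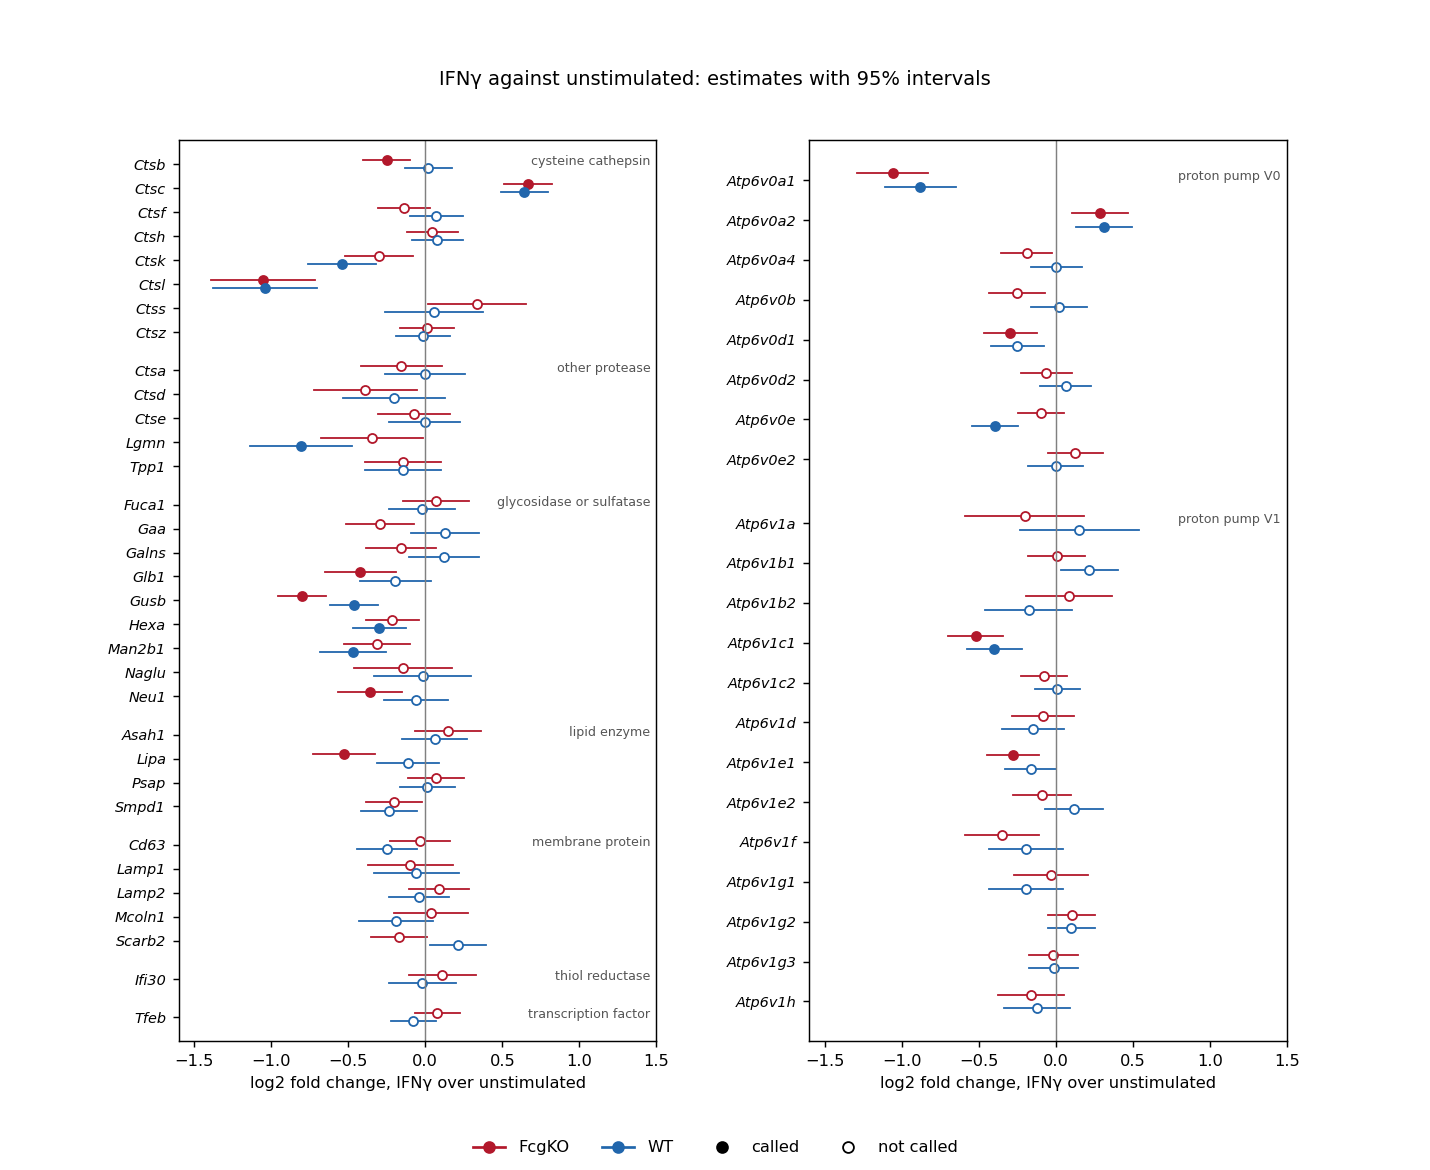
Log2 fold change of IFNγ over unstimulated for all 54 genes, listed by role, with 95% intervals (not adjusted for the number of genes) in FcgKO (red) and WT (blue), and filled circles for genes called at an adjusted p below 0.05. Most intervals span 0 or lie close to it; Atp6v0a1 and Ctsl lie near -1 and Ctsc near 0.65 in both genotypes.

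Among the 8 cysteine cathepsins, 1 rose and 2 fell in each genotype. Ctsc encodes dipeptidyl peptidase 1, which removes dipeptides from proteins and activates granule serine proteases. Its probe read 11592 and 11841 in FcgKO cells with IFNγ, against 7111 and 7694 in unstimulated FcgKO cells. It read 12739 and 13222 in WT cells with IFNγ, against 8246 and 8406 in unstimulated WT cells. All 4 IFNγ arrays were above all 4 unstimulated ones, with a log2 fold change of 0.67 (SE 0.07, adjusted p = 8.12e-05) in FcgKO and 0.64 (SE 0.07, adjusted p = 0.000103) in WT. Its other probes, fitted with every named probe on its own (10.4% of 23978 probes called in FcgKO and 11.6% in WT), gave 1.01 and 1.09 in FcgKO and 0.85 and 0.77 in WT, all called.

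Ctsl encodes cathepsin L, an endopeptidase that in mice also processes the MHC class II invariant chain. It read 121 and 140.2 in FcgKO cells with IFNγ, against 227 and 236 in unstimulated FcgKO cells. In WT cells it read 118 and 115 with IFNγ, against 239 and 173 unstimulated. The IFNγ arrays were below the unstimulated arrays in both genotypes, close to the array median of 103. The log2 fold change was -1.05 (SE 0.15, adjusted p = 0.000895) in FcgKO and -1.04 (SE 0.15, adjusted p = 0.000851) in WT, and over the alternatives it ran between -1.42 and -0.83 in FcgKO and between -1.49 and -0.76 in WT. Its window holds an E-box, in capitals, and no CLEAR core.
Ctsl, chr13:64370471-64370770, minus strand: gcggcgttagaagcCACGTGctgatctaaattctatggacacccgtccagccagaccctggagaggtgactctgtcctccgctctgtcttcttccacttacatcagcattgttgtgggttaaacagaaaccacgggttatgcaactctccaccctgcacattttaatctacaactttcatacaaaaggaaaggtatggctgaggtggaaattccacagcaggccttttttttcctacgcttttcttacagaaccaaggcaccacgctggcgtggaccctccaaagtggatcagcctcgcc

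Ctsb encodes cathepsin B, an abundant endopeptidase and exopeptidase. It read 13806 and 13077 in FcgKO cells with IFNγ, against 16146 and 15814 unstimulated, a fall with a log2 fold change of -0.25 (SE 0.07, adjusted p = 0.0381). In WT cells it read 15124 and 14191 with IFNγ, against 14385 and 14524 unstimulated, a log2 fold change of 0.02 (SE 0.07, adjusted p = 0.936). The WT arrays of the 2 conditions overlapped and the FcgKO arrays did not. Ctsk, the gene of the collagen-cutting cathepsin K, read 122 and 124 in WT cells with IFNγ, against 149.7 and 178 unstimulated, and fell with a log2 fold change of -0.54 (SE 0.10, adjusted p = 0.00385). In FcgKO cells Ctsk read 108 and 113 with IFNγ, against 124 and 132 unstimulated, a log2 fold change of -0.30 (SE 0.10, adjusted p = 0.0867) that did not pass. The Ctsk arrays with IFNγ lay near the array median, most closely in FcgKO cells. Ctss, whose product trims the invariant chain in antigen-presenting cells, read 438 and 603 in FcgKO cells with IFNγ, against 422 and 407 unstimulated. In WT cells Ctss read 430.0 and 449 with IFNγ, against 385 and 469 unstimulated. The Ctss log2 fold changes were 0.34 (SE 0.14, adjusted p = 0.202) in FcgKO and 0.05 (SE 0.14, adjusted p = 0.912) in WT, and neither passed. The other cathepsins of this kind, Ctsf, Ctsh and Ctsz, had log2 fold changes between -0.14 and 0.05 in FcgKO and between -0.02 and 0.08 in WT.

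**Figure D2:**
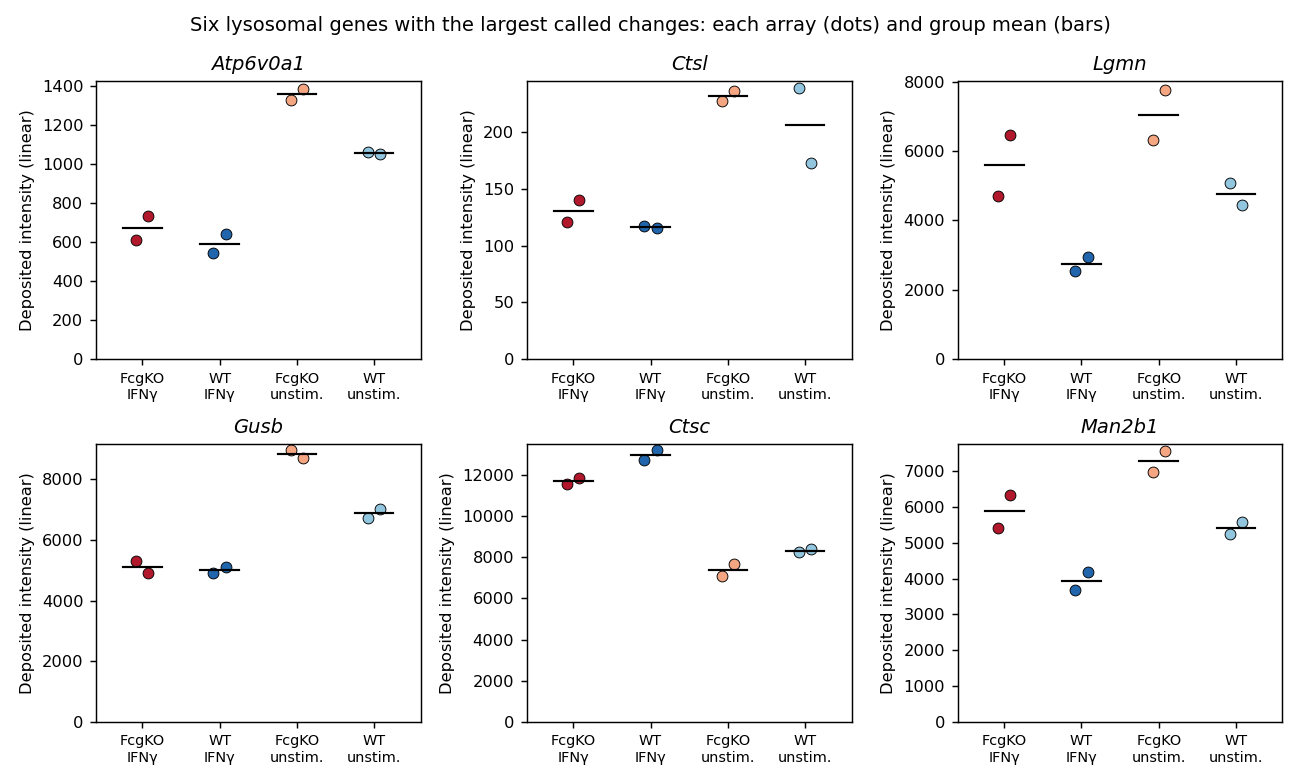
Deposited intensity (linear axis from 0) of the 6 genes with the largest called changes, with each array as a dot and the mean of the 2 arrays as a bar, for FcgKO with IFNγ, WT with IFNγ, FcgKO unstimulated and WT unstimulated. Ctsc is above and Atp6v0a1, Ctsl and Gusb are below the unstimulated arrays with IFNγ in both genotypes, and Lgmn and Man2b1 are above WT in FcgKO cells with IFNγ.

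Of the 5 other proteases, none was called in FcgKO and 1 fell in WT. That gene was Lgmn, which encodes legumain, an asparaginyl endopeptidase that processes antigens and cathepsins. Lgmn read 2534 and 2947 in WT cells with IFNγ, against 5073 and 4441 in unstimulated WT cells, a log2 fold change of -0.80 (SE 0.15, adjusted p = 0.00393). In FcgKO cells it read 4715 and 6472 with IFNγ, against 6309 and 7761 unstimulated, a log2 fold change of -0.34 (SE 0.15, adjusted p = 0.211), and the conditions overlapped. Without replicate 1 of WT with IFNγ the WT fall had an adjusted p of 0.0543. Ctsd, the gene of the aspartic protease cathepsin D, read 245 and 245 in FcgKO cells with IFNγ, against 299.8 and 320.2 unstimulated. In WT cells Ctsd read 212 and 242 with IFNγ, against 215 and 304 unstimulated. Its log2 fold change was -0.39 in FcgKO (95% interval -0.72 to -0.06) and -0.20 in WT (-0.54 to 0.13), neither called. Its promoter is among those with the CLEAR core shown above. Ctsa, Ctse and Tpp1 were between -0.15 and -0.07 in FcgKO and between -0.15 and 0.00 in WT on the log2 scale, and none was called.

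Among the 9 genes of sugar-cutting enzymes (8 glycosidases and the sulfatase gene Galns), 3 fell in each genotype and none rose. Gusb, which encodes the β-glucuronidase that trims glycosaminoglycans, was the member called in both. It read 5291 and 4907 in FcgKO cells with IFNγ, against 8973 and 8720.3 in unstimulated FcgKO cells. It read 4899 and 5099 in WT cells with IFNγ, against 6723 and 7029.9 in unstimulated WT cells. On this probe the genotypes overlapped with IFNγ, and the unstimulated FcgKO arrays were the highest. The log2 fold change was -0.80 (SE 0.07, adjusted p = 2.38e-05) in FcgKO and -0.46 (SE 0.07, adjusted p = 0.00115) in WT. Its other probes had the same sign, with -0.42 and -0.36 in FcgKO and -0.46 and -0.31 in WT.

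In FcgKO cells the other falls were Glb1 (β-galactosidase) and Neu1 (the sialidase that works with it). Glb1 read 1742 and 2052 in FcgKO cells with IFNγ, against 2529 and 2509 unstimulated, a log2 fold change of -0.42 (SE 0.10, adjusted p = 0.0219). Neu1 read 2241 and 2094 in FcgKO cells with IFNγ, against 2861 and 2675 unstimulated, a log2 fold change of -0.36 (SE 0.09, adjusted p = 0.031). In WT cells the conditions overlapped for both genes, with Glb1 at 1984 and 1797 with IFNγ and 1979.5 and 2349 unstimulated, and Neu1 at 2615 and 2639 with IFNγ and 2477 and 3020.3 unstimulated. In WT cells the other falls were Hexa (the α subunit of β-hexosaminidase) and Man2b1 (lysosomal α-mannosidase). Hexa read 1627 and 1570.5 in WT cells with IFNγ, against 2038 and 1879 unstimulated, a log2 fold change of -0.30 (SE 0.08, adjusted p = 0.0287). Man2b1 read 3669.6 and 4184 in WT cells with IFNγ, against 5242 and 5571 unstimulated, a log2 fold change of -0.47 (SE 0.10, adjusted p = 0.00762). In FcgKO cells Hexa read 1794 and 1839.8 with IFNγ, against 1985 and 2222 unstimulated, a log2 fold change of -0.21 (SE 0.08, adjusted p = 0.125). Man2b1 read 5408 and 6349.5 in FcgKO cells with IFNγ, against 6989.6 and 7573 unstimulated, a log2 fold change of -0.31 (SE 0.10, adjusted p = 0.0622). The arrays of the conditions did not overlap there, but neither gene passed. Fuca1, Gaa, Galns and Naglu were called in neither genotype, with log2 fold changes between -0.30 and 0.07 in FcgKO and between -0.02 and 0.13 in WT.

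Of the 4 genes for lipid breakdown, Lipa fell in FcgKO and was not called in WT, and none of the others was called. It encodes the acid lipase that frees cholesterol and fatty acids from engulfed lipoproteins. Lipa read 466 and 556 in FcgKO cells with IFNγ, against 710.0 and 728 unstimulated, a log2 fold change of -0.53 (SE 0.09, adjusted p = 0.00251). In WT cells it read 624 and 658 with IFNγ, against 677 and 704 unstimulated, a log2 fold change of -0.11 (SE 0.09, adjusted p = 0.572). The difference of these responses was -0.42 (95% interval -0.70 to -0.13, adjusted p = 0.464), so the responses were not shown to differ. Asah1, Psap and Smpd1 (acid ceramidase, the saposin precursor and acid sphingomyelinase) lay between -0.20 and 0.15 in FcgKO and between -0.24 and 0.06 in WT.

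None of the 5 membrane protein genes, nor the thiol reductase gene Ifi30 or the regulator gene Tfeb, was called for IFNγ in either genotype by the probe that stood for it. Lamp1 and Lamp2 encode the glycoproteins that line the lysosome's membrane. Lamp1 read 6399.7 and 8341 in FcgKO cells with IFNγ and 7065 and 8647 unstimulated, and 6399.7 and 6658 in WT cells with IFNγ and 6969 and 6628 unstimulated. Its log2 fold change was -0.10 in FcgKO (95% interval -0.37 to 0.18) and -0.06 in WT (-0.33 to 0.22). Lamp2 was at 0.09 (-0.11 to 0.28) in FcgKO and -0.04 (-0.24 to 0.15) in WT. All 4 intervals span 0. The other Lamp2 probes gave 0.33, 0.25 and -0.0026 in FcgKO and 0.10, 0.23 and 0.06 in WT, and the first of them was called higher with IFNγ in FcgKO (adjusted p = 0.043 with every named probe on its own). Mcoln1, the gene of the calcium channel mucolipin 1, was at 0.04 (-0.20 to 0.28) in FcgKO and -0.19 (-0.43 to 0.05) in WT. Cd63 and Scarb2 lay between -0.17 and -0.03 in FcgKO and between -0.25 and 0.21 in WT.

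Ifi30 encodes GILT, the reductase that opens disulfide bonds of antigens and is named for its induction by IFNγ. It read 3885 and 3457 in FcgKO cells with IFNγ and 3347 and 3449 unstimulated, and 2934 and 3542 in WT cells with IFNγ and 3399.6 and 3135 unstimulated. The conditions overlapped in WT and were apart in FcgKO by less than the spread of the IFNγ pair. The log2 fold change was 0.11 in FcgKO (95% interval -0.11 to 0.33) and -0.02 in WT (-0.24 to 0.20), neither called. The other Ifi30 probe gave 0.22 in FcgKO and 0.17 in WT (log2), also not called. Tfeb read 101 and 104 in FcgKO cells with IFNγ and 98.5 and 98.8 unstimulated, and 97.9 and 97.2 in WT cells with IFNγ and 102 and 101 unstimulated. These Tfeb intensities lie near or under the array median of 103, so its level was not measured well on these arrays.

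The pump subunits did not move together. In the V0 sector, which forms the proton path in the membrane, 1 of 8 genes rose and 2 fell in each genotype. Atp6v0a1 and Atp6v0a2 encode alternative a subunits, which steer the pump to different membranes. Atp6v0a1 read 612 and 735 in FcgKO cells with IFNγ, against 1332 and 1385 in unstimulated FcgKO cells. In WT cells it read 545 and 641 with IFNγ, against 1062 and 1053 unstimulated. All IFNγ arrays lay below all unstimulated ones, with a log2 fold change of -1.06 (SE 0.10, adjusted p = 5.19e-05) in FcgKO and -0.88 (SE 0.10, adjusted p = 0.000187) in WT. A second, dim Atp6v0a1 probe fell short of a call, with -0.22 in FcgKO and -0.34 in WT.

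Atp6v0a2 went the other way. It read 574 and 635 in FcgKO cells with IFNγ, against 486 and 517 unstimulated, a log2 fold change of 0.29 (SE 0.08, adjusted p = 0.0432). In WT cells it read 568 and 548 with IFNγ, against 437 and 477 unstimulated, a log2 fold change of 0.31 (SE 0.08, adjusted p = 0.0273). The opposite signs of these 2 subunit genes held in both genotypes and under every alternative that was run, though the Atp6v0a2 call did not. Atp6v0d1, the gene of the d subunit at the base of the rotor, read 2992 and 2825 in FcgKO cells with IFNγ, against 3501 and 3623 unstimulated, and fell with a log2 fold change of -0.30 (SE 0.08, adjusted p = 0.0289). In WT cells Atp6v0d1 read 2844 and 2654 with IFNγ, against 3102 and 3424 unstimulated, a log2 fold change of -0.25 (SE 0.08, adjusted p = 0.059). The 3 other Atp6v0d1 probes gave -0.28, -0.07 and -0.0063 in FcgKO and -0.26, -0.28 and -0.35 in WT, none called. Atp6v0e, a small membrane subunit, read 4391 and 4589 in WT cells with IFNγ, against 5947 and 5833 unstimulated, and fell with a log2 fold change of -0.39 (SE 0.07, adjusted p = 0.00247). In FcgKO cells Atp6v0e read 4948 and 4817 with IFNγ, against 5073 and 5357 unstimulated, a log2 fold change of -0.10 (SE 0.07, adjusted p = 0.531) that did not pass. Both Atp6v0d1 and Atp6v0e carry the CLEAR core shown above, and the other 5 genes with the core were called in no comparison. Of the 14 called genes with a window 2 hold the core (14.3%), against 16.3% of the 43.

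In the V1 sector, which burns ATP on the cytosolic side, 2 of 13 genes fell in FcgKO and 1 fell in WT, and none rose. Atp6v1c1 encodes the C subunit that joins the sectors. It read 763 and 850.2 in FcgKO cells with IFNγ, against 1098 and 1185 unstimulated. In WT cells it read 737 and 794 with IFNγ, against 997 and 998 unstimulated. The conditions were apart in both genotypes, with a log2 fold change of -0.52 (SE 0.08, adjusted p = 0.00134) in FcgKO and -0.40 (SE 0.08, adjusted p = 0.00661) in WT. Atp6v1e1, a peripheral stalk subunit, read 7853 and 8406 in FcgKO cells with IFNγ, against 10235 and 9445 unstimulated, and fell with a log2 fold change of -0.28 (SE 0.08, adjusted p = 0.0369). In WT cells Atp6v1e1 read 8368 and 8406 with IFNγ, against 9032 and 9758 unstimulated, a log2 fold change of -0.16 (SE 0.08, adjusted p = 0.24). Atp6v1a and Atp6v1b2, the catalytic A subunit and the B subunit found in most tissues, had log2 fold changes of -0.20 and 0.08 in FcgKO, and 0.15 and -0.18 in WT, none called. The others of this sector lay between -0.35 and 0.10 in FcgKO and between -0.19 and 0.22 in WT.

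How firmly these responses stand differs from gene to gene. Atp6v0a1, Atp6v1c1, Ctsc, Ctsl, Gusb and Lipa in FcgKO, and Atp6v0a1, Ctsc, Ctsk, Ctsl and Gusb in WT, were called under all 16 alternatives. The FcgKO calls of Atp6v0a2, Atp6v0d1, Atp6v1e1, Ctsb, Glb1 and Neu1 were lost without one or another array, each of them without either array of unstimulated FcgKO, with adjusted p-values up to 0.271, 0.166, 0.259, 0.208, 0.16 and 0.213 in that order. The WT calls of Atp6v0a2, Atp6v1c1, Hexa and Man2b1 were lost without replicate 1 of WT with IFNγ, and the highest adjusted p over the fits without 1 array was 0.175, 0.0698, 0.175 and 0.086. The count in FcgKO was 7 without replicate 1 and 6 without replicate 2 of the unstimulated cells, and the count in WT was 6 without replicate 1 of WT with IFNγ. With an offset of 16 in the background correction 6 genes were called in FcgKO and 7 in WT. The Atp6v0e call in WT was among those lost (adjusted p = 0.0563 in limma). With cyclic loess 7 were called in FcgKO. Over the 24 further probes of the 13 genes with several, the sign was that of the probe used in 19 for FcgKO and 18 for WT.

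FcgKO against WT asks what loss of the Fcγ chain does to these genes in each condition. With IFNγ, 2 of the 54 genes were higher in FcgKO cells and none was lower, against 1.25% of all genes higher and 1.62% lower. In unstimulated cells 1 was higher and none was lower, against 0.289% of all genes higher and 0.53% lower. At an unadjusted p below 0.05, 13 of the 54 passed with IFNγ and 14 passed unstimulated, in either direction, against 12.5% of all genes with IFNγ and 8.42% unstimulated. The median log2 fold change of the 54 genes was 0.03 with IFNγ and 0.09 unstimulated, against 1.72e-05 with IFNγ and 0.0036 unstimulated for all genes.

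Legumain stood out with IFNγ. Lgmn read 4715 and 6472 in FcgKO cells with IFNγ, against 2534 and 2947 in WT cells with IFNγ. The genotypes were apart, with a log2 fold change of 1.02 (SE 0.15, adjusted p = 0.00382). In unstimulated cells it read 6309 and 7761 in FcgKO, against 5073 and 4441 in WT, also without overlap, and the log2 fold change of 0.56 (95% interval 0.23 to 0.89, adjusted p = 0.169) did not pass. The 2 FcgKO arrays of each condition differed from each other more than the WT arrays did. Without replicate 1 of WT with IFNγ the difference with IFNγ had an adjusted p of 0.0623.

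The α-mannosidase gene Man2b1 showed the same order of groups. It read 5408 and 6349.5 in FcgKO cells with IFNγ, against 3669.6 and 4184 in WT cells with IFNγ, a log2 fold change of 0.58 (SE 0.10, adjusted p = 0.00776). In unstimulated cells it read 6989.6 and 7573 in FcgKO, against 5242 and 5571 in WT, a log2 fold change of 0.43 (SE 0.10, adjusted p = 0.088). FcgKO was above WT on every array of both conditions, and the test passed with IFNγ and not in unstimulated cells. The call was lost without replicate 2 of FcgKO with IFNγ and without replicate 1 of WT with IFNγ (adjusted p up to 0.0992). Without replicate 1 of WT with IFNγ none of the 54 genes was called. Lgmn lies on chromosome 12 and Man2b1 on chromosome 8, while Fcer1g lies on chromosome 1.

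In unstimulated cells the called gene was Gusb. It read 8973 and 8720.3 in FcgKO, against 6723 and 7029.9 in WT, a log2 fold change of 0.37 (SE 0.07, adjusted p = 0.0448). With IFNγ it read 5291 and 4907 in FcgKO, against 4899 and 5099 in WT, a log2 fold change of 0.03 (adjusted p = 0.938). On this probe the genotypes were apart in unstimulated cells and overlapped with IFNγ. The other Gusb probes gave 0.27 and 0.11 with IFNγ and 0.22 and 0.17 unstimulated (log2), none called, so the pattern was not shared by all probes of the gene. The unstimulated call stood in 6 of 16 alternatives; it was lost without either array of unstimulated FcgKO, unstimulated WT or WT with IFNγ, with adjusted p-values up to 0.331. All 9 sugar-cutting enzyme genes had a positive log2 fold change in unstimulated cells, with a median of 0.16, as did 40 of the 54 genes, and only Gusb was called. With IFNγ 6 of the 9 were positive, with a median of 0.03.

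**Figure D3:**
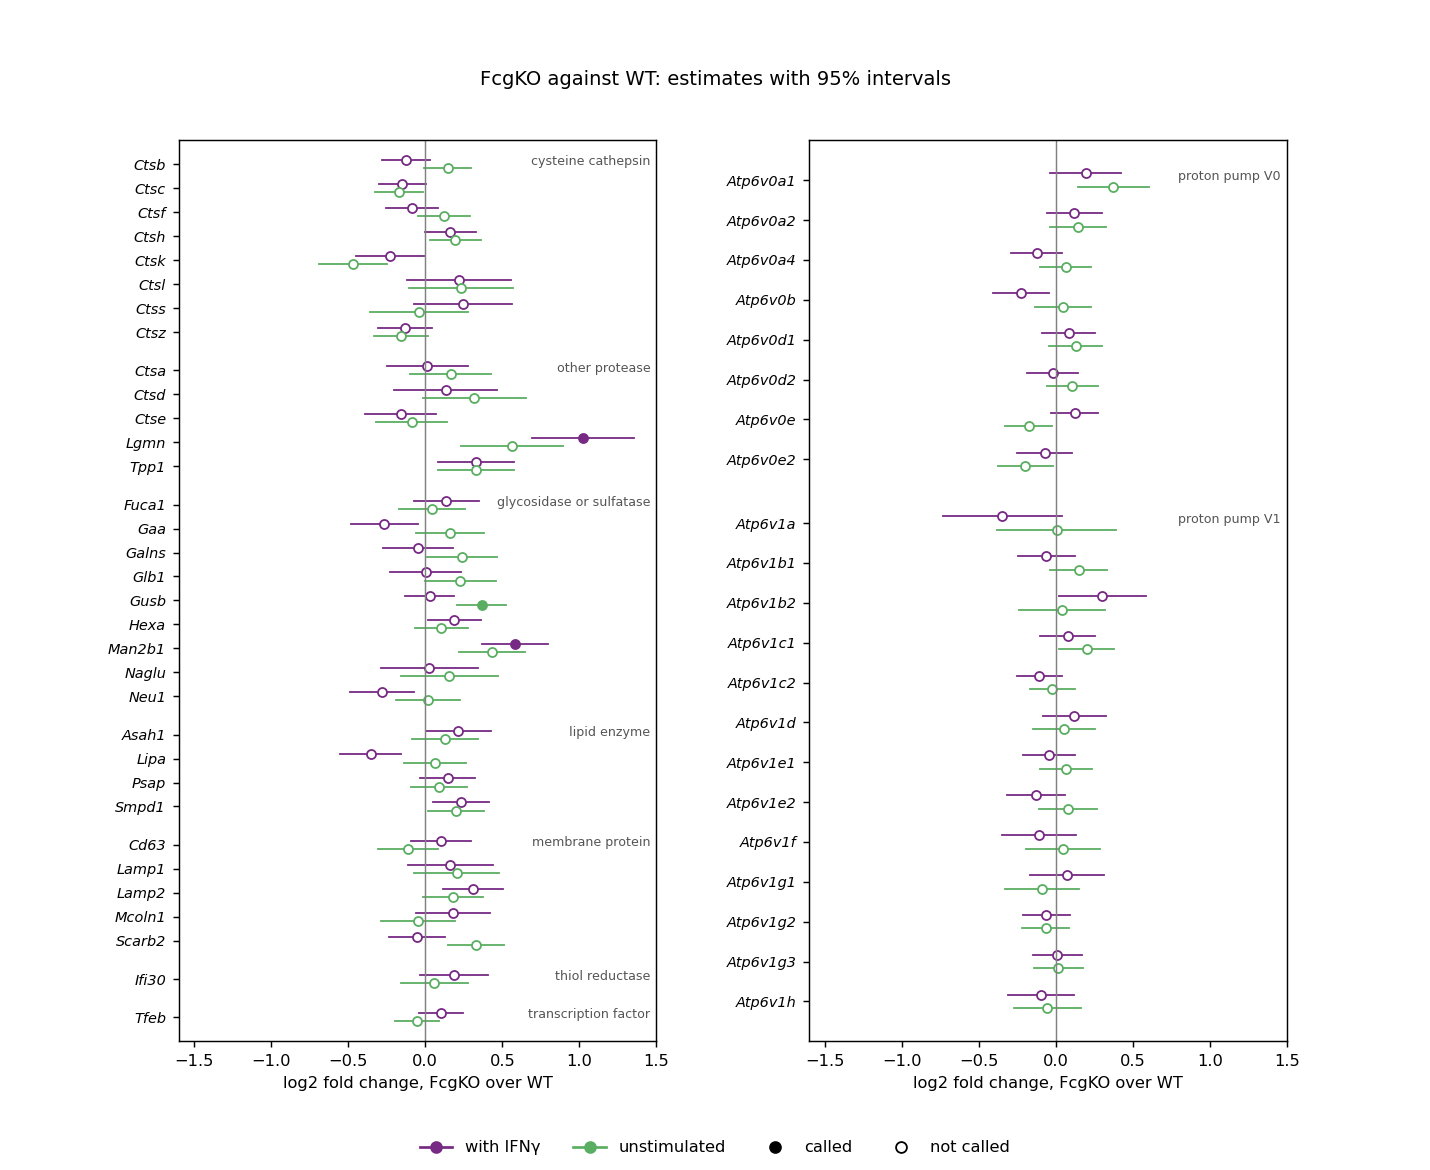
Log2 fold change of FcgKO over WT for all 54 genes, listed by role, with 95% intervals (not adjusted for the number of genes) with IFNγ (purple) and unstimulated (green), and filled circles for genes called at an adjusted p below 0.05. Lgmn and Man2b1 are called with IFNγ and lie to the right of 0 in both conditions, and Gusb is called in unstimulated cells and lies at 0 with IFNγ.

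No pump subunit gene was called between genotypes in either condition. Lamp2 read 6703 and 7694 in FcgKO cells with IFNγ, against 5758 and 5854 in WT cells with IFNγ, a log2 fold change of 0.31 (SE 0.09, adjusted p = 0.113) that did not pass. Its 3 other probes were also positive, with 0.31, 0.28 and 0.16 (log2). Lipa read 466 and 556 in FcgKO cells with IFNγ, against 624 and 658 in WT cells with IFNγ, a log2 fold change of -0.35 (SE 0.09, adjusted p = 0.0718) that did not pass. Among the genes of defining roles, the log2 fold changes with IFNγ were 0.16 for Lamp1, 0.13 for Ctsd, 0.18 for Mcoln1 and 0.10 for Tfeb, none called. In unstimulated cells they were 0.20 for Lamp1, 0.18 for Lamp2, 0.32 for Ctsd, -0.05 for Mcoln1 and -0.05 for Tfeb, none called.

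Markers of another cell type moved with genotype as well. Mast cell markers, of which 9 of 10 had a probe, summed to 1892 to 2321 in FcgKO cells with IFNγ and to 3273 to 3567 in WT cells with IFNγ. In unstimulated cells they summed to 1728 to 1943 in FcgKO and to 2767 to 3009 in WT. Of the 9, 7 were lower in FcgKO with IFNγ and 5 in unstimulated cells, and the defining marker Ms4a2 was under the array median on all arrays. Macrophage markers summed to 35662 to 35858 in FcgKO cells with IFNγ and to 36668 to 38215 in WT cells with IFNγ, and Mertk and Timd4 among them were lower in FcgKO. Adgre1 and Gata6 went the other way with IFNγ, at log2 fold changes of 0.32 and 0.32. Cd14 was at -0.35, Itgam at 0.06 and Lyz2 at 0.02, and none of these was called. Lyz2 and Cd14 made up most of the sums. In replicate 2 of every group Lyz2 read 22479, the brightest value of the array, so a change in it could not be measured well. In unstimulated cells the macrophage markers summed to 38496 to 39849 in FcgKO and to 41261 to 45516 in WT, with none called. No B cell, T cell, dendritic cell, neutrophil or eosinophil marker was called between genotypes in the fit used, but some sums were lower in FcgKO. Neutrophil markers summed to 2766 to 3202 in FcgKO cells with IFNγ and to 3931 to 4233 in WT cells with IFNγ. In unstimulated cells they summed to 2376 to 2468 in FcgKO and to 2816 to 3716 in WT. These sums are mostly 1 gene, S100a8, with means of 2680 in FcgKO and 3788 in WT with IFNγ. Unstimulated, its means were 2121 in FcgKO and 2968 in WT. S100a9, Mpo and Ngp lay near or under the array median. Dendritic cell markers summed to 432 to 464 in FcgKO cells with IFNγ and to 479 to 519.6 in WT cells with IFNγ, and to 447 to 464 in unstimulated FcgKO cells and 475 to 487 in unstimulated WT cells. Neither of these lists' sums overlapped between genotypes. Among the dendritic cell markers, Flt3 lay under the array median on all arrays, and Zbtb46 and, in FcgKO cells, Ccr7 lay near it. B cell markers summed to 1361 to 1736 in FcgKO cells with IFNγ and to 1697 to 2503 in WT cells with IFNγ, and to 1489 to 2041 in unstimulated FcgKO cells and 1822 to 2709 in unstimulated WT cells. Of these, Cd79a, Cd79b and Blk were higher in replicate 1 than in replicate 2 in all 4 groups. The 4 eosinophil markers lay under the array median on all arrays. The part of these markers in the Lgmn, Man2b1 and Gusb results was not tested.

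The difference of the IFNγ responses, FcgKO minus WT, asks whether the genotypes respond unequally. It was called for none of the 54 genes in limma, against 0.0181% of all genes in either direction, and 8 of the 54 had an unadjusted p below 0.05, against 7.17% of all genes. The genes with the smallest p were Gusb, at -0.34 (95% interval -0.56 to -0.12, adjusted p = 0.457), Scarb2 at -0.38 (adjusted p = 0.462) and Lipa at -0.42 (adjusted p = 0.464). For Lgmn the difference was 0.46 (95% interval -0.01 to 0.93), and for Ctsc it was 0.02 (-0.19 to 0.24). Genes called in a single genotype, such as Lipa, Lgmn, Ctsb and Atp6v0e, were therefore not shown to respond differently between the genotypes. With 2 arrays a group these intervals are wide.

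A second list, of other lysosomal genes that are not among the 54, shows how the rest of the organelle's genes behaved. Of 60 listed, 53 had a probe. In FcgKO cells 5 rose and 9 fell with IFNγ, against 5.07% and 7.15% of all genes. In WT cells 6 rose and 9 fell, against 5.54% and 7.77% of all genes. Ppt1, the gene of a thioesterase that removes palmitate from proteins, read 1174 and 1249 in FcgKO cells with IFNγ, against 526 and 628 unstimulated. In WT cells Ppt1 read 948 and 1017 with IFNγ, against 426 and 421 unstimulated. All IFNγ arrays lay above all unstimulated ones, with log2 fold changes of 1.12 (SE 0.09, adjusted p = 1.23e-05) in FcgKO and 1.29 (SE 0.09, adjusted p = 4.7e-06) in WT.

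Clcn7, the gene of the chloride-proton exchanger that balances the pump's charge, read 1280.2 and 1209 in FcgKO cells with IFNγ, against 567 and 613 unstimulated. In WT cells Clcn7 read 1348 and 1627 with IFNγ, against 715 and 598 unstimulated. It rose in both, with log2 fold changes of 1.12 (SE 0.11, adjusted p = 5.23e-05) in FcgKO and 1.23 (SE 0.11, adjusted p = 2.56e-05) in WT, where no pump subunit gene but Atp6v0a2 was called as rising. Tmem192, a lysosomal membrane protein gene, rose by 0.89 (SE 0.07, adjusted p = 1.07e-05) in FcgKO and 0.89 (SE 0.07, adjusted p = 1.02e-05) in WT on the log2 scale. Sort1 encodes sortilin, which carries enzymes from the Golgi to the lysosome. It read 713 and 723 in FcgKO cells with IFNγ, against 1776 and 1633 unstimulated, and 902 and 861 in WT cells with IFNγ, against 1597 and 1658 unstimulated. It fell in both, with log2 fold changes of -1.29 (SE 0.07, adjusted p = 6.89e-07) in FcgKO and -0.91 (SE 0.07, adjusted p = 8.92e-06) in WT. Ctns, the cystine transporter gene, fell with log2 fold changes of -0.64 (SE 0.11, adjusted p = 0.00202) in FcgKO and -0.79 (SE 0.11, adjusted p = 0.000449) in WT.

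**Figure D4:**
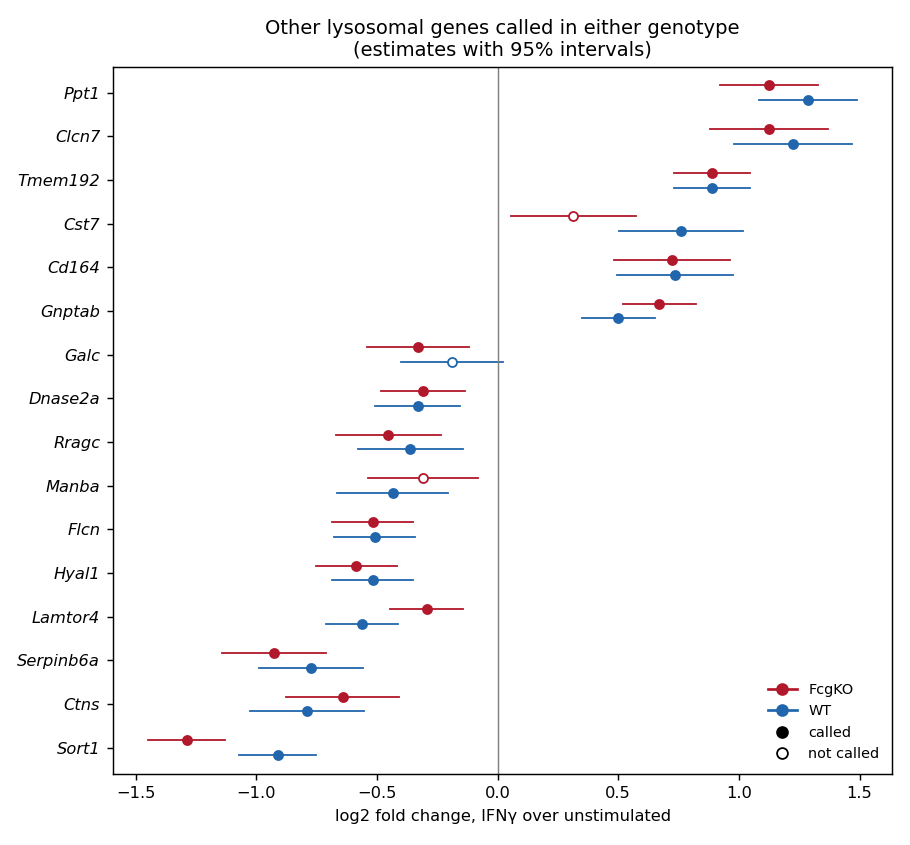
Log2 fold change of IFNγ over unstimulated, with 95% intervals (not adjusted for the number of genes), for the 16 other lysosomal genes called in FcgKO (red) or WT (blue), ordered by the WT value, with filled circles where called. Ppt1, Clcn7 and Tmem192 lie near 1 and Sort1 near -1 in both genotypes; Hyal1 was under the array median with IFNγ, so its point is not a measured fold.

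Serpinb6a was among the genes listed as cathepsin inhibitors and encodes a serpin, a kind of serine protease inhibitor. It fell with log2 fold changes of -0.93 (SE 0.10, adjusted p = 8.66e-05) in FcgKO and -0.77 (SE 0.10, adjusted p = 0.000308) in WT. Cst7, of cystatin F, which blocks cathepsin C and its relatives, rose in WT with a log2 fold change of 0.76 (SE 0.12, adjusted p = 0.00117). In FcgKO the Cst7 value was 0.31 (SE 0.12, adjusted p = 0.13), and with IFNγ Cst7 was lower in FcgKO than in WT, at -0.52 (SE 0.12, adjusted p = 0.0431). Cst7 read 119 and 125 in FcgKO cells with IFNγ, against 114 and 98.0 unstimulated. In WT cells it read 148 and 173 with IFNγ, against 106 and 111 unstimulated. All but the WT arrays with IFNγ lay near the array median, so the size of these folds is uncertain. Among the regulators of lysosomal nutrient signalling, Flcn fell with log2 fold changes of -0.52 (SE 0.08, adjusted p = 0.000943) in FcgKO and -0.51 (SE 0.08, adjusted p = 0.00095) in WT, Lamtor4 with -0.29 (SE 0.07, adjusted p = 0.0153) in FcgKO and -0.56 (SE 0.07, adjusted p = 0.00022) in WT, and Rragc with -0.45 (SE 0.10, adjusted p = 0.0111) in FcgKO and -0.36 (SE 0.10, adjusted p = 0.0336) in WT. Hyal1, a hyaluronidase gene, read 93.3 and 93.8 in FcgKO cells with IFNγ, against 117 and 129 unstimulated, and 95.7 and 96.5 in WT cells with IFNγ, against 121 and 124 unstimulated. It was called lower in both genotypes (adjusted p = 0.000395 in FcgKO and 0.000853 in WT), from an IFNγ level under the array median.

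Between genotypes, Ppt1 was higher in unstimulated FcgKO than in unstimulated WT cells, with a log2 fold change of 0.47 (SE 0.09, adjusted p = 0.0443). With IFNγ, Pla2g15, the gene of a lysosomal phospholipase, was higher in FcgKO, with a log2 fold change of 0.43 (SE 0.09, adjusted p = 0.0409), and Sort1 was lower, with -0.31 (SE 0.07, adjusted p = 0.0477). The Sort1 call was lost in every fit without 1 array and stood in 4 of 16 alternatives. The calls of Ppt1 and Pla2g15, and that of Cst7 between genotypes, were lost in some fits without 1 array. Each of these calls was also lost with an offset of 16 in the background correction. Of the IFNγ calls named from this list, those of Lamtor4 in FcgKO and Rragc in both genotypes were also lost without 1 array or another (adjusted p up to 0.127 for Lamtor4, and 0.1 in FcgKO and 0.164 in WT for Rragc).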

How the data were processed

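DNase-treated RNA of the 8 samples was amplified, biotin-labelled and hybridised to Illumina MouseRef-8 v2.0 arrays, according to the labels. The submitters' processing notes name GenomeStudio (version not given in these sources). The deposited intensity values are linear and not background-subtracted. They were already normalised between arrays by the authors, since the sorted values of the columns differ by at most 0.00585 on the log2 scale. A second deposited table numbers its arrays only, so its 16 value columns, detection p included, could not be assigned and were not used. Each array's median probe served as the low end of the scale.

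The intensities were corrected with normexp (offset 50, which understates the folds of dim genes) and taken to log2, with no further normalisation. Of 25697 probes, 23978 carry 1 gene symbol, 1719 none and 0 several. The probe with the highest mean stood for its gene, leaving 16593 genes. The limma fit (version 3.58.1, in R 4.3.3) gave each group its own mean over all 8 arrays, leaving 4 residual degrees of freedom beside a prior of 6.57 (prior SD 0.0805). Benjamini-Hochberg adjustment ran over all genes, and "called" means an adjusted p under 0.05. The fit was tested on simulated data. Arrays have no read depth, and their number limits the precision.

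The 54 genes and all lists were chosen with earlier results of these data known. Values per sample are given for genes called, up to 10 in each direction of a comparison, and for Lamp1, Lamp2, Tfeb, Mcoln1 and Ctsd. From the second list, up to 4 called genes per class are named. Further genes named were chosen after their values were seen. The alternatives were no background correction, an offset of 16, cyclic loess, every probe on its own, a filter on dim genes, a trended robust prior, only the groups compared, a replicate block and leaving out each array. Their use on the second list was chosen after seeing the data. Same-numbered samples of different groups deviated together with correlations of -0.00625 to 0.236. Promoters are RefSeq's (GRCm38.p6), matched by symbol.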

Additional observations from a re-analysis of the deposited data

How the results depend on the processing

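Of the 26 calls among the 54 genes, over 416 values under the alternatives, 341 kept direction and call, 75 kept direction and lost the call, and 0 reversed. With an offset of 16 in the background correction, 7 genes were called for IFNγ in WT against 11, 6 in FcgKO against 12, and 0 between unstimulated genotypes against 1. With cyclic loess, 7 were called for IFNγ in FcgKO. Between unstimulated genotypes the count was also 0 with the filter on dim genes, 0 with only the groups compared and 2 with a trended robust prior, so the Gusb call there rests on the setting. The replicate block, whose numbers are not stated to pair the samples, gave 11 for IFNγ in WT, 16 in FcgKO, 3 between unstimulated genotypes, 3 between genotypes with IFNγ and 0 for the difference of responses. Leaving out 1 array gave 6 to 11 for IFNγ in WT, 6 to 16 in FcgKO, 0 to 2 between unstimulated genotypes, 0 to 3 between genotypes with IFNγ and 0 throughout for the difference of responses. The count between genotypes with IFNγ was 0 without replicate 1 of WT with IFNγ. The cause of these losses was not tested, beyond the smaller number of arrays where one was left out. Over all genes the calls were 2210 for IFNγ in WT and 2028 in FcgKO. Between genotypes they were 136 unstimulated and 476 with IFNγ, and 3 for the difference. Alternatives that tested genes and left out no single array gave 1557 to 2420 for IFNγ in WT and 1379 to 2248 in FcgKO. They gave 80 to 237 between unstimulated genotypes, 287 to 677 with IFNγ and 0 to 25 for the difference. Leaving out 1 array widened each of these ranges. With every named probe on its own, 2774 of 23978 probes were called for IFNγ in WT and 2482 in FcgKO. For the second list, of 528 values under the alternatives 456 kept the call, 72 lost it and 0 reversed. With the replicate block, which was added for the markers after seeing the data, 2 of 5 B cell markers (Cd79a and Cd79b) were lower in unstimulated FcgKO than in unstimulated WT, and 3 (Blk, Cd79a and Cd79b) and the neutrophil marker S100a8 were lower in FcgKO with IFNγ. Of the 7 macrophage markers, Timd4 was lower in unstimulated FcgKO. With IFNγ, Mertk and Timd4 were lower in FcgKO and Gata6 was higher (log2 fold change 0.32). Of the 9 mast cell markers, 6 were lower in unstimulated FcgKO and 7 with IFNγ. Signal near or under the array median limits Tfeb, Ctse, Ctsf, Fuca1 and the pump genes Atp6v0a4, Atp6v0d2, Atp6v0e2, Atp6v1c2, Atp6v1e2 and Atp6v1g3. Signal near the median also limits Ctsk and Ctsl with IFNγ.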
